A study of Mus musculus with 24 samples.

Results

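The genes described here are 10 genes of the NF-kB pathway and its inflammatory output, of 55487 gene identifiers counted in each library. They were taken by symbol and fall into 4 roles. Nfkb1 and Relb encode subunits of the transcription factor. Nfkbia, Nfkbiz and Tnfaip3 encode inhibitors and feedback regulators. Ccl3, Ccl4 and Cxcl2 encode chemokines, and Tnf and Il1b encode cytokines.

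NF-kB dimers are held in the cytoplasm by IkB proteins until kinases downstream of cytokine and Toll-like receptors mark the IkB protein for destruction. The freed dimers enter the nucleus and switch on inflammatory genes together with the genes of their own inhibitors, so that Nfkbia and Tnfaip3 serve as readouts of the pathway as well as brakes on it. In hematopoietic stem cells (HSCs), which give rise to all blood lineages, tumour necrosis factor and interleukin-1 are known as signals of inflammation that alter self-renewal and push cells towards myeloid output.

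The libraries were made from sorted mouse HSCs by Smart-seq2, which copies and amplifies full-length cDNA from few cells. There were 24 libraries in 3 experiments, each with its own control. In the first, 3 libraries labelled PUS10-OE (overexpression of Pus10, a pseudouridine synthase) were set against 3 labelled Vector. In the second, 6 libraries labelled miR139-KD (knockdown of the microRNA miR-139) were set against 6 of a non-target control, NTC. In the third, 3 libraries labelled Pus10-KO were set against 3 labelled Pus10-WT. The vectors, the allele of the knockout, and the strain, age and sex of the mice are not given in the sources used here, and nothing states whether replicates were taken from different mice.

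Levels are given as CPM, read counts scaled to a common library total within each experiment. Gene-assigned counts ran from 34.2 to 47.3 M per library (M, mega) in Vector and PUS10-OE, from 9.87 to 14.7 M in NTC and miR139-KD, and from 11.9 to 18.2 M in Pus10-WT and Pus10-KO. All 10 listed HSC markers had reads in each of the 6 groups. The targeted gene Pus10 stood at 257 ± 23.7 CPM (SD, n = 3) in PUS10-OE and 75.9 ± 20.2 (n = 3) in Vector. It stood at 35.2 ± 1.31 (n = 3) in the libraries labelled Pus10-KO and 28.4 ± 7.68 (n = 3) in Pus10-WT, so the counts over the whole gene do not show a loss, and every direction given for that pair rests on the labels. Summed B and plasma cell markers reached 13119 to 15459 CPM in Pus10-WT and 5.37 to 14.8 CPM in Pus10-KO. EdgeR called 2 of the 5 tested lower (0.0478% of all genes). Summed megakaryocyte markers reached 1112 to 2810 CPM in miR139-KD and 65.6 to 314 CPM in NTC, with 4 of the 5 tested called higher (1.41% of all genes).

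The promoters of 6 of the 10 genes were matched in RefSeq (build GRCm38.p6): Nfkbia, Tnfaip3 (2 start sites), Ccl3, Cxcl2, Tnf and Il1b. Nfkb1, Relb, Nfkbiz and Ccl4 were not matched. The 250 bases before each start were searched on both strands for the kappaB consensus, the sequence to which NF-kB dimers bind. The stretches that hold the consensus are shown because Nfkbia, Tnfaip3 and Cxcl2 held it and the other matched members did not. Capitals mark the match, and each is read 5′ to 3′ on the strand of the gene.
Nfkbia (chr12:55492658-55492685, minus strand): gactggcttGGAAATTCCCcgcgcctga
Tnfaip3, distal match (chr10:19015517-19015544, minus strand): actcacgcgGGGACACCCCggggcggga
Tnfaip3, proximal match (chr10:19015411-19015431, minus strand): atttccatcGGAAATCCCCct
Cxcl2 (chr5:90903793-90903821, plus strand): ctgagctcaGGGAATTTCCCtggtccccg
The capitals of Nfkbia lie 29 to 20 bases before the start, those of Tnfaip3 125 to 116 and 12 to 3 bases before it, and those of Cxcl2 97 to 87 bases before it. These distances are to the RefSeq start. In GENCODE M21, Tnfaip3 reaches to 19015657 on the minus strand, so both of its matches lie within that gene model. No match was in the windows of Ccl3, Tnf and Il1b or at the other Tnfaip3 start. Of all 32851 RefSeq promoters of this length, 7.25% held the consensus.

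With PUS10-OE, the members that stood furthest from Vector were the chemokines Ccl3 and Ccl4, and 8 of the 9 members tested had a negative log2 fold change, as did 49.3% of all genes. No member was called by edgeR at an adjusted p under 0.05, and neither was any gene of the whole table (0% of 14834 genes tested). Pus10, the overexpressed gene, was itself missed by edgeR (log2 fold change 1.76, adjusted p = 0.278) and called by DESeq2 (adjusted p = 3.07e-16). A gene not called by edgeR here is therefore not shown to be unchanged. At an unadjusted p under 0.05, 4 members were lower and 0 higher, against 3.72% of all genes lower and 4.47% higher. The groups did not overlap for 3 members, all lower in PUS10-OE, against 6.75% of all genes. DESeq2 called 2 members lower (0.593% of all genes), and limma-voom called 0 (0% of all genes). The median log2 fold change of the 9 members was -0.93, beside 0.0059 over all genes.

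Ccl3, a chemokine that draws in monocytes and other leukocytes, lies on chromosome 11 at 83647844 to 83649355 (GRCm38). Its level was 11.9, 28.1 and 15.2 CPM in Vector replicates 1 to 3 and 1.17, 1.24 and 4.65 CPM in PUS10-OE replicates 1 to 3. Every PUS10-OE library lay below every Vector library, and PUS10-OE replicate 3 came closest to them. The log2 fold change of Ccl3 was -2.97 (SE 0.623, edgeR adjusted p = 0.337), a 7.82-fold lower mean, and DESeq2 gave -2.98 (adjusted p = 6.25e-05). Limma-voom gave -3.43 (adjusted p = 0.262). EdgeR with all 6 groups in 1 fit gave -2.97 with an SE of 1.03 and did not call it. In bulk libraries such as these, fewer cells that express a gene and less RNA per cell cannot be told apart.

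Ccl4, a chemokine of the same family, lies 13.2 kb from Ccl3 on the same chromosome (83662584 to 83664683). It stood at 39.8, 6.76 and 6.93 CPM in Vector replicates 1 to 3, against 3.52, 3.96 and 3.61 CPM in PUS10-OE. The PUS10-OE libraries were all lower and nearly equal, while Vector replicate 1 stood far above the other two Vector libraries. The log2 fold change of Ccl4 was -2.27 (SE 0.696, edgeR adjusted p = 0.452; DESeq2 adjusted p = 0.0197). It was -0.89 without Vector replicate 1 (edgeR adjusted p = 0.782).

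Cxcl2, which attracts neutrophils, was close to the limit of detection. Vector replicates 1 to 3 gave 1.73, 0.458 and 0 CPM of Cxcl2, and PUS10-OE gave 0.486, 0 and 0 CPM. The groups overlapped, and the log2 fold change of -2.15 had an SE of 2.13 (edgeR adjusted p = 0.905). It was -0.50 without Vector replicate 1 (adjusted p = 1), and without PUS10-OE replicate 1 that group is at 0 and no fold is given.

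**Figure D1:**
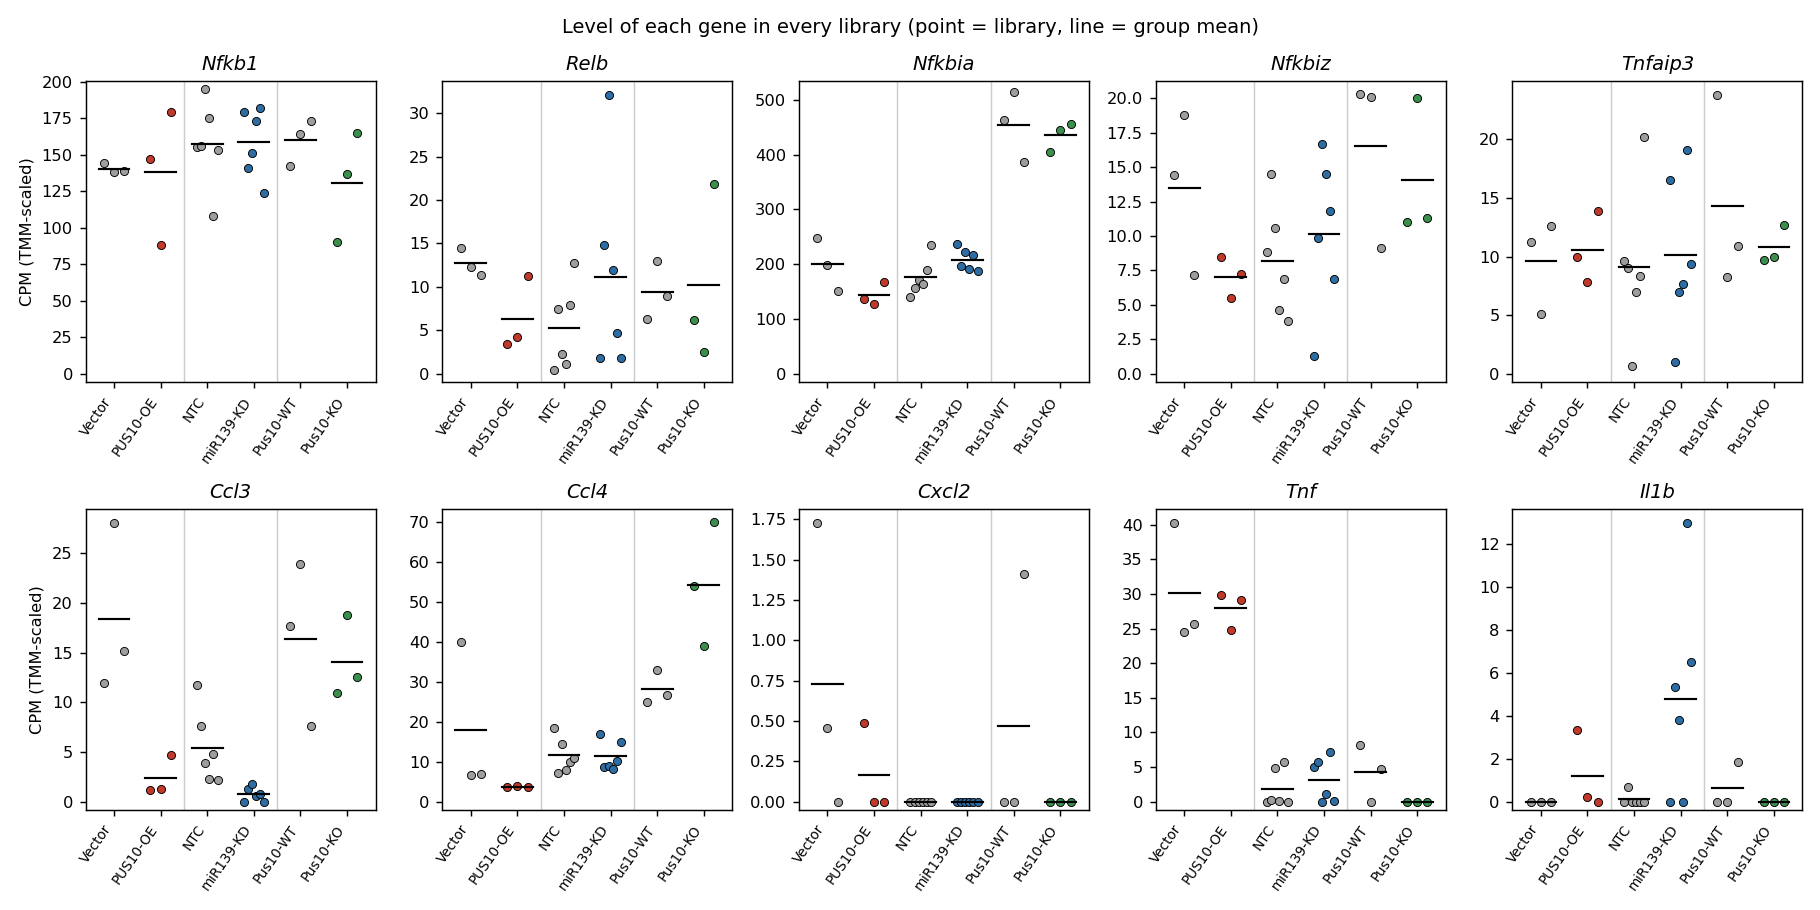
Level of each of the 10 genes in every library, as TMM-scaled CPM on a linear axis that differs between panels. Points are libraries, horizontal lines are group means, and the vertical lines separate the 3 experiments. Ccl3 lies lower in PUS10-OE than in Vector and lower in miR139-KD than in NTC, with no overlap, while Tnf is high in all Vector and PUS10-OE libraries.

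Among the feedback genes, Nfkbia and Nfkbiz stood lower in PUS10-OE on average and Tnfaip3 did not. Nfkbia, the IkB-alpha gene and a standard NF-kB target, stood at 248, 199 and 152 CPM in Vector replicates 1 to 3 and at 136, 127 and 168 CPM in those of PUS10-OE. PUS10-OE replicate 3 exceeded Vector replicate 3, so the groups overlapped. The fit gave Nfkbia -0.48 on the log2 scale (SE 0.187, edgeR unadjusted p = 0.0344, adjusted p = 0.567). Nfkbiz, a nuclear IkB protein that acts on secondary response genes, had 14.4, 18.8 and 7.18 CPM in Vector against 8.45, 5.49 and 7.24 CPM in PUS10-OE. Vector replicate 3 fell among the PUS10-OE values, and the log2 fold change of Nfkbiz was -0.93 (SE 0.376, edgeR adjusted p = 0.583).

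Tnfaip3, a ubiquitin-editing enzyme that shuts down signalling from the TNF receptor, had 11.2, 5.08 and 12.6 CPM in Vector against 9.98, 7.79 and 13.9 CPM in PUS10-OE. The ranges overlapped almost fully, with a log2 fold change of 0.13 (95% interval -0.63 to 0.89, edgeR adjusted p = 0.983).

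The subunit genes differed from each other in this experiment. Relb, a subunit of the non-canonical pathway, had 14.5, 12.3 and 11.4 CPM in Vector against 3.42, 4.23 and 11.2 CPM in PUS10-OE. The PUS10-OE libraries were all lower, although PUS10-OE replicate 3 missed the lowest Vector library by little. The log2 fold change of Relb was -1.02 (SE 0.451, edgeR adjusted p = 0.625), and -1.75 without PUS10-OE replicate 3 (adjusted p = 0.293). Nfkb1, which encodes the precursor of a canonical subunit, had 144, 138 and 139 CPM in Vector against 147, 88.4 and 179 CPM in PUS10-OE. Its PUS10-OE libraries lay on both sides of the Vector libraries, with a log2 fold change of -0.02 (95% interval -0.47 to 0.42, edgeR adjusted p = 0.995). Nfkb1 overlaps the gene Gm43430 on the same strand (at most 9.27 CPM in any library), and how shared reads were assigned is not stated.

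Of the cytokines, Tnf had 40.3, 24.5 and 25.7 CPM in Vector against 29.9, 24.8 and 29.1 CPM in PUS10-OE. The groups overlapped, and the log2 fold change of Tnf was -0.11 (95% interval -0.55 to 0.33, edgeR adjusted p = 0.972). Il1b had 0 reads in each Vector library, and 137, 9 and 0 reads in PUS10-OE replicates 1 to 3, which is 3.33, 0.223 and 0 CPM. It did not pass the filter on low counts, and nearly all of its reads came from PUS10-OE replicate 1. Smart-seq2 reads carry no strand, so reads of Il1b cannot be told from those of its antisense gene Il1bos where they overlap (chromosome 2, Il1b at 129364570 to 129371139, Il1bos at 129369897 to 129375748).

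The immediate early genes, which respond quickly to stimulation and to cell handling, summed to 463 to 566 CPM in Vector and 302 to 404 CPM in PUS10-OE, with no overlap. EdgeR called 0 of the 10 listed immediate early genes tested. At an unadjusted p under 0.05 it found 2 of them lower (3.72% of all genes), Egr1 at -0.96 and Dusp1 at -0.89 on the log2 scale. Neutrophil markers summed to 56.2 to 81.3 CPM in Vector and 56.1 to 67.1 CPM in PUS10-OE, with Retnlg, Ngp and S100a9 at 0 in all 6 libraries. Monocyte and macrophage markers summed to 457 to 548 CPM in Vector and 390 to 548 CPM in PUS10-OE, with Ly6c2 at 0 in all 6. Most of these sums was Lyz2, at 412 to 495 and 369 to 513 CPM. All 5 tested had a negative log2 fold change, and edgeR called 0. At an unadjusted p under 0.05, 1 was lower (3.72% of all genes). The 1 without overlap was Csf1r (6.75% of all genes lower with no overlap). Csf1r stood at 2.54 to 2.95 CPM in Vector and 0.0243 to 1.14 CPM in PUS10-OE. Megakaryocyte and platelet markers summed to 153 to 180 CPM in Vector and 249 to 449 CPM in PUS10-OE, with no overlap. Of the 5 tested, 0 were called and 3 were higher at an unadjusted p under 0.05 (4.47% of all genes). The part of the immediate early genes and of these cells in the values of Ccl3 and Ccl4 was not tested.

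With miR139-KD, Ccl3 was again the member furthest from its control, while Ccl4 was not lower. EdgeR called 0 of the 8 members tested, against 2.72% of 13295 genes. At an unadjusted p under 0.05 it found 1 member lower (Ccl3; 8% of all genes lower) and 0 higher (8.04%). Ccl3 was also the 1 member whose groups did not overlap, against 1.78% of all genes lower with no overlap. DESeq2 called 1 member, Ccl3 (3.11% of all genes lower), and limma-voom called 0 (3.94% of all genes in either direction). The median log2 fold change of the 8 members was 0.19, beside 0.02 over all genes.

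Ccl3 ranged in NTC from 2.22 to 11.7 CPM (median 4.31) and in miR139-KD from 0 to 1.79 CPM (median 0.675). All 6 miR139-KD libraries lay below all 6 NTC libraries, and miR139-KD replicates 1 and 6 had 0 reads, which at 3 counts allows up to 0.3 and 0.264 CPM. The log2 fold change of Ccl3 was -2.85 (SE 1.02, edgeR adjusted p = 0.169). It was called by DESeq2 at -2.87 (adjusted p = 0.0332) and by edgeR with all 6 groups in 1 fit at -2.85 (adjusted p = 0.029). It was not called by limma-voom (-3.32, adjusted p = 0.0927) or by edgeR with a replicate block (-3.27, adjusted p = 0.258). The counts behind it were low, 424 reads over the 6 NTC libraries and 56 over the 6 of miR139-KD. Megakaryocyte markers did not overlap between the same groups, as given above. Of the B and plasma cell markers, 2 of 5 tested were called lower (1.31% of all genes) and 3 were lower with no overlap (1.78%). The latter included Cd79a (232 to 494 CPM in NTC, 3.71 to 93.2 in miR139-KD). The summed B and plasma cell markers overlapped, at 388 to 10731 CPM in NTC and 29.8 to 9595 CPM in miR139-KD. T and NK cell markers summed to 348 to 550 CPM in NTC and 199 to 401 CPM in miR139-KD (1 of 3 tested called lower), with Cd3e, Cd3g and Cd8a at 0 in all 12 libraries. Monocyte and macrophage markers summed to 538 to 2197 CPM in NTC (median 889) and 451 to 1848 CPM in miR139-KD (median 1503). Of the 6 tested, 1 was called lower, and 3 had a positive and 3 a negative log2 fold change. HSC markers summed to 462 to 760 CPM in NTC and 659 to 849 CPM in miR139-KD. All 10 had a positive log2 fold change, and 1 was called higher (1.41% of all genes). The part of these cells in the Ccl3 values was not tested.

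Ccl4 ranged from 7.26 to 18.4 CPM (median 10.5) in NTC and from 8.06 to 16.9 CPM (median 9.46) in miR139-KD. The groups overlapped almost completely, with a log2 fold change of Ccl4 of -0.03 (95% interval -0.71 to 0.65, edgeR adjusted p = 0.982). Since the neighbouring genes Ccl3 and Ccl4 parted here, the share of Ccl3 in the reads of both was computed in each library, a measure chosen after the values were seen. In miR139-KD the share was 7.25% ± 6.76 (SD, n = 6) and in NTC 30.4% ± 13 (n = 6), 23.1 points apart with the lower share in miR139-KD. The difference had p = 0.00433 by a two-sided exact permutation test (0.013 after Benjamini-Hochberg adjustment over the 3 experiments), and 0.00216 is the smallest p this design allows. These p-values do not cover the choice of the measure from the same libraries. The highest miR139-KD share equalled the lowest NTC share to 3 digits, at 16.8%, from 131 and 179 reads. Without any 1 of the 12 libraries the gap lay between 18.9 and 25.8 points.

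**Figure D2:**
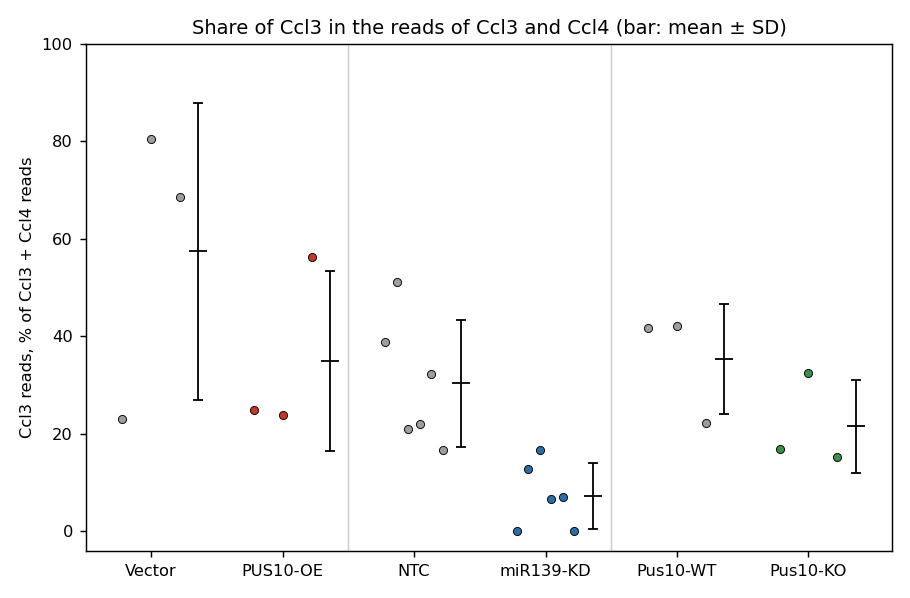
Share of Ccl3 in the summed reads of Ccl3 and Ccl4, in percent, in each of the 24 libraries. Points are libraries and bars are the group mean ± SD. The miR139-KD libraries lie between 0 and 16.8% and the NTC libraries between 16.8 and 51.2%, so these groups meet at 16.8%. The groups of the other experiments overlap more widely.

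The same share was 35% ± 18.5 in PUS10-OE and 57.4% ± 30.4 in Vector (n = 3 each, two-sided exact permutation p = 0.4). In that experiment both chemokines stood lower in PUS10-OE, and the share ran from 23% to 80.6% within Vector alone. It was 21.6% ± 9.57 in Pus10-KO and 35.3% ± 11.3 in Pus10-WT (n = 3 each, exact permutation p = 0.2). With 3 libraries against 3 no p can go below 0.1.

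Nfkbia ranged from 140 to 235 CPM (median 168) in NTC and from 187 to 237 CPM (median 207) in miR139-KD. The miR139-KD libraries sat in the upper part of the NTC range, and the log2 fold change of Nfkbia was 0.24 (SE 0.122, edgeR adjusted p = 0.353). Nfkbiz ranged from 3.85 to 14.5 CPM (median 7.86) in NTC and from 1.3 to 16.7 CPM (median 10.8) in miR139-KD, and the groups overlapped (log2 fold change 0.31, SE 0.531, edgeR adjusted p = 0.856). Tnfaip3 spread even more widely, from 0.682 to 20.2 CPM (median 8.68) in NTC and from 0.968 to 19.1 CPM (median 8.48) in miR139-KD. Its log2 fold change was 0.14 with an SE of 0.676 (edgeR adjusted p = 0.953).

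Relb varied more than Nfkb1 within these groups, from 0.421 to 12.7 CPM (median 4.87) in NTC and from 1.8 to 32.1 CPM (median 8.28) in miR139-KD. The groups overlapped and the log2 fold change of Relb was 1.07 with an SE of 0.845 (edgeR adjusted p = 0.605). It was 0.40 without miR139-KD replicate 3 (adjusted p = 0.893). Nfkb1 was steady, from 108 to 195 CPM (median 156) in NTC and from 124 to 182 CPM (median 162) in miR139-KD. Its log2 fold change was 0.01 (95% interval -0.26 to 0.29, edgeR adjusted p = 0.984).

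Tnf ranged from 0 to 5.67 CPM (median 0.173) in NTC and from 0 to 7.12 CPM (median 3.08) in miR139-KD. It was patchy in both groups, with 2 NTC libraries and 1 miR139-KD library at 0, and its log2 fold change of 0.81 had an SE of 1.46 (edgeR adjusted p = 0.861). Cxcl2 had 0 reads in all 12 libraries, which at 3 counts allows up to 0.204 to 0.3 CPM per library.

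Il1b was found in 1 NTC library, replicate 2 (0.698 CPM from 10 reads), and in 4 of 6 miR139-KD libraries. Replicates 1 to 6 of miR139-KD gave 0, 5.32, 3.82, 0, 13 and 6.51 CPM of Il1b. The 4 positive miR139-KD libraries all exceeded the NTC library with reads, but the groups overlapped at 0. Il1b did not pass the filter on low counts, and in the fit with no filter its edgeR unadjusted p was 0.00823 and its adjusted p 0.199. Il1b is a typical gene of neutrophils and monocytes, and neutrophil markers summed to 17264, 11175, 16753 and 9712 CPM in the positive miR139-KD replicates 2, 3, 5 and 6. They summed to 1379 CPM in replicate 1 and 17785 CPM in replicate 4, both with 0 reads of Il1b, and to 1114 to 19087 CPM in NTC. The part of these cells in the Il1b values was not tested.

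**Figure D3:**
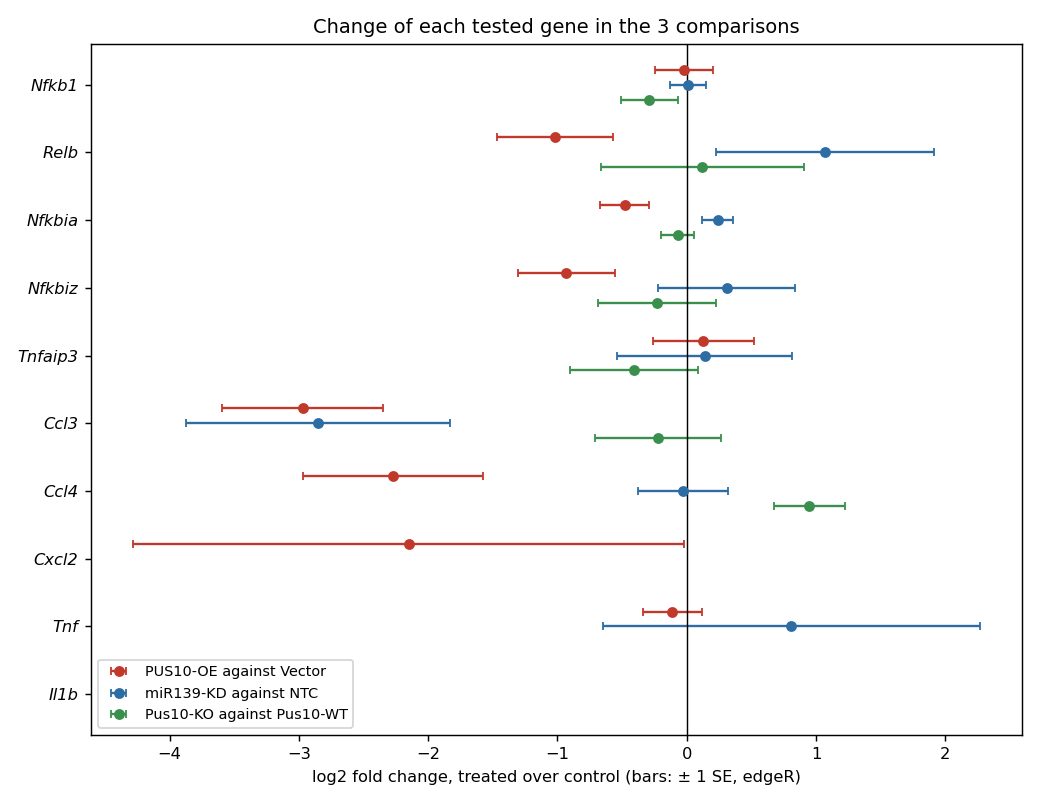
Log2 fold change of each tested gene in the 3 comparisons, with bars of 1 standard error from edgeR. Ccl3 lies at -2.97 in PUS10-OE, -2.85 in miR139-KD and -0.22 in Pus10-KO, Ccl4 at -2.27, -0.03 and 0.95, and no value passed an adjusted p of 0.05. Genes with no point did not pass the filter on low counts.

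In the libraries labelled Pus10-KO, Ccl4 was the member furthest from Pus10-WT, on the higher side. EdgeR called 0 of the 7 members tested, against 0.0614% of 14657 genes. At an unadjusted p under 0.05 it found 1 member higher (Ccl4; 3.53% of all genes higher) and 0 lower (3.33%), and Ccl4 was also the 1 member without overlap (6.86% of all genes higher with no overlap). DESeq2 and limma-voom called 0 members (0.996% and 0.0205% of all genes in either direction). The median log2 fold change of the 7 members was -0.22, beside -0.0034 over all genes.

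Ccl4 stood at 24.8, 32.9 and 26.6 CPM in Pus10-WT replicates 1 to 3 and 53.8, 38.9 and 69.9 CPM in Pus10-KO replicates 1 to 3. Every library labelled Pus10-KO was higher than every Pus10-WT library. The log2 fold change of Ccl4 was 0.95 (SE 0.278, edgeR adjusted p = 0.537; DESeq2 adjusted p = 0.175). B and plasma cell markers separate the same libraries in the other direction, as given above. T and NK cell markers summed to 43.4 to 106 CPM in Pus10-WT and 91.8 to 166 CPM in Pus10-KO, and monocyte and macrophage markers to 592 to 848 and 707 to 1136 CPM, with 0 of the 3 and 0 of the 6 tested called. Klrb1c, an NK cell marker, was picked out after its values were seen. It stood at 13 to 27.7 CPM in Pus10-WT and 35.2 to 70.3 CPM in Pus10-KO, with no overlap (6.86% of all genes higher). Of the same list, Lck (medians 21.8 and 21.7 CPM) and Nkg7 (8.63 to 49.9 and 28.1 to 88.9 CPM) overlapped. Cd3e and Cd8a were at 0 in both groups. Of the 3 tested, 1 was higher at an unadjusted p under 0.05 (3.53% of all genes). Neutrophil markers summed to 539 to 814 and 608 to 3391 CPM, and erythroid markers to 231 to 1723 and 453 to 4613 CPM. Of these, 0 were called, and 2 of 5 and 3 of 6 tested were higher at an unadjusted p under 0.05. In Pus10-KO, Elane ranged from 1.48 to 1292 CPM (median 715) and Mpo from 0.247 to 1204 CPM (median 682). In Pus10-WT they reached at most 1.7 and 0.063 CPM. Ltf, Ngp and Retnlg were at 0 in all Pus10-KO libraries, and S100a9 reached at most 4.12 CPM there. The part of these cells in the Ccl4 values was not tested. Ccl3 stood at 17.7, 23.9 and 7.64 CPM in Pus10-WT and 10.9, 18.8 and 12.6 CPM in Pus10-KO, with full overlap and -0.22 on the log2 scale (SE 0.487, edgeR adjusted p = 0.999).

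The inhibitor and feedback genes overlapped between the libraries labelled Pus10-KO and Pus10-WT. Nfkbia stood at 464, 515 and 386 CPM in Pus10-WT and 404, 445 and 456 CPM in Pus10-KO, with a log2 fold change of -0.07 (95% interval -0.31 to 0.18, edgeR adjusted p = 0.999). Nfkbiz stood at 20.3, 20.1 and 9.12 CPM in Pus10-WT and 11, 20 and 11.3 CPM in Pus10-KO. Tnfaip3 stood at 23.8, 8.26 and 10.9 CPM in Pus10-WT and 9.71, 9.92 and 12.7 CPM in Pus10-KO. For both genes a single library held the extreme value of Pus10-WT, and their log2 fold changes were -0.23 (SE 0.453) for Nfkbiz and -0.41 (SE 0.494) for Tnfaip3.

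Relb stood at 6.29, 13 and 8.91 CPM in Pus10-WT and 6.17, 2.56 and 21.8 CPM in Pus10-KO. Its Pus10-KO libraries held both the lowest and the highest value, and the log2 fold change of Relb was 0.12 with an SE of 0.786. Nfkb1 stood at 142, 164 and 173 CPM in Pus10-WT and 90.2, 137 and 165 CPM in Pus10-KO, an overlap with -0.29 on the log2 scale (SE 0.222, edgeR adjusted p = 0.932). Tnf stood at 8.15, 0 and 4.67 CPM in Pus10-WT, from 131, 0 and 66 reads. All 3 libraries labelled Pus10-KO were at 0 reads of Tnf, as was Pus10-WT replicate 2, so the groups overlapped at 0 and no fold is given. A library at 0 allows up to 0.163 to 0.247 CPM in this experiment. Cxcl2 (20 reads) and Il1b (26 reads) were present in Pus10-WT replicate 3 alone and at 0 in the other 5 libraries of this experiment.

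The 3 experiments share no library, so the difference between their log2 fold changes could be tested with all 6 groups in 1 fit. EdgeR called 0 of the members in each of the 3 differences, against 0.051% (PUS10-OE minus miR139-KD), 0.0226% (PUS10-OE minus Pus10-KO) and 0.294% (miR139-KD minus Pus10-KO) of 17664 genes. The difference of Ccl4 between PUS10-OE and Pus10-KO was -3.21 (SE 0.738, edgeR unadjusted p = 0.000238, adjusted p = 0.324), and DESeq2 called it at -3.20 (adjusted p = 0.00583). Without Vector replicate 1 the edgeR difference was -1.84 (adjusted p = 0.961). For Ccl4 between PUS10-OE and miR139-KD it was -2.20 (edgeR adjusted p = 0.286), and -0.83 without Vector replicate 1 (adjusted p = 0.817). The difference of Nfkbia between PUS10-OE and miR139-KD was -0.69 (SE 0.211, edgeR adjusted p = 0.302). For Ccl3 it was -0.12 between PUS10-OE and miR139-KD (SE 1.27, adjusted p = 1), which leaves room for a difference in either direction.

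Levels across experiments were set on 1 scaling of all 24 libraries as a description, since experiment, vector and preparation cannot be told apart. Tnf stood at 26.9 to 43.1 CPM in all 6 Vector and PUS10-OE libraries and at no more than 7.46 CPM in the other 18. Tnf thus separated the first experiment from the rest with no overlap, in control and treated libraries alike. The share of all genes that separate experiments in this way was not computed. Such a separation is therefore not shown to be particular to Tnf, or to Nfkbia below. Nfkbia stood at 415 ± 60.5 CPM in Pus10-WT and 401 ± 25.3 in Pus10-KO, then 216 ± 50.8 in Vector, 207 ± 18.7 in miR139-KD, 176 ± 32.8 in NTC and 157 ± 20 in PUS10-OE. The lowest Pus10-WT or Pus10-KO library reached 350 CPM and the highest of the other groups 266 CPM, while neighbours within each of these blocks overlapped. Ccl4 was highest in Pus10-KO (50 ± 14.1 CPM) and Pus10-WT (25.6 ± 3.89 CPM), and 42.7 CPM in Vector replicate 1 fell within their range. Nfkb1 had the flattest profile, between 121 ± 34.8 CPM in Pus10-KO and 157 ± 29.4 CPM in NTC, with every neighbouring pair of groups overlapping.

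The summed HSC markers also separated these experiments, at 2441 to 2906 CPM in the Pus10-WT and Pus10-KO libraries, each scaled within its own experiment, and 462 to 849 CPM in the others. Their part in the levels of Nfkbia and Ccl4 was not tested.

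Between genes, levels were compared per kilobase of merged exons. Nfkbia led in every group, from 97.5 CPM per kb in PUS10-OE to 258 CPM per kb in Pus10-WT. In Vector it was followed by Ccl4 at 29.1 ± 30.8, Ccl3 at 26.1 ± 12.4, Tnf at 19.9 ± 5.58 and Nfkb1 at 12.6 ± 0.217 CPM per kb, and the first 3 of these did not differ beyond their spread. In PUS10-OE, Tnf at 18.7 ± 1.72 and Nfkb1 at 12.5 ± 3.96 CPM per kb stood above Ccl4 at 6.14 ± 0.457 and Ccl3 at 3.32 ± 2.75. Relb, Nfkbiz and Tnfaip3 stayed between 1.26 and 3.55 CPM per kb in all 6 groups. The place of Nfkb1 depends on the length used, since its longest transcript gives 36.6 CPM per kb in Vector.

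The rest of the pathway was read from a list of 64 other genes, from receptors and adaptors to target genes. EdgeR called 0 of them in each comparison, of 57 tested with PUS10-OE, 50 with miR139-KD and 52 with Pus10-KO. At an unadjusted p under 0.05, edgeR found 1 higher and 7 lower with PUS10-OE, where 4.47% of all genes were higher and 3.72% lower. It found 6 higher and 2 lower with miR139-KD (8.04% and 8% of all genes), and 1 higher and 1 lower with Pus10-KO (3.53% and 3.33%). Their median log2 fold changes were -0.05, 0.02 and 0.06, beside 0.0059, 0.02 and -0.0034 over all genes. DESeq2 called 3 with PUS10-OE, 3 with miR139-KD and 0 with Pus10-KO, against 1.19%, 5.99% and 0.996% of all genes, so the share with miR139-KD was that of all genes. Limma-voom called 0, 1 and 0, against 0%, 3.94% and 0.0205%.

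Of the listed feedback genes, the one with the lowest p in PUS10-OE was Zfp36, whose protein destabilises the mRNAs of Tnf and other cytokines. Zfp36 had 67.4 ± 4.1 CPM in Vector against 37.9 ± 2.72 in PUS10-OE (n = 3 each, no overlap), or -0.83 on the log2 scale (SE 0.124, edgeR adjusted p = 0.278; DESeq2 adjusted p = 6.76e-06). The chemokine Ccl9 stood at 41.8 ± 13.9 in Vector and 21.5 ± 6.67 CPM in PUS10-OE (log2 fold change -0.96, edgeR adjusted p = 0.486). The receptor gene Cd40 had 257 reads in Vector and 3 in PUS10-OE, and no fold is given for so few (DESeq2 adjusted p = 0.000643, edgeR 0.358). The other subunit gene with the lowest p was Rel, with 10.1 ± 3.56 CPM in PUS10-OE against 17.2 ± 7.42 in Vector (n = 3 each, log2 fold change -0.77, edgeR adjusted p = 0.717). Of the kinase genes it was Ikbkb, at 0.09 (edgeR adjusted p = 0.958).

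Il1r1, the signalling receptor for interleukin-1, was picked out after its values were seen, because the groups did not overlap in both experiments. With PUS10-OE, 9 of the 57 listed genes tested were lower with no overlap and 3 higher (6.75% and 8.31% of all genes). With miR139-KD, 1 of 50 was lower with no overlap and 2 higher (1.78% and 1.65%). With Pus10-KO, 0 of the 18 receptor and adaptor genes tested had an edgeR unadjusted p under 0.05. Il1r1 had 24.5 ± 7.43 CPM in Vector against 11.4 ± 1.43 in PUS10-OE (n = 3 each), and 34.3 ± 11.9 CPM in NTC and 6.72 ± 6 in miR139-KD (n = 6 each). Its log2 fold changes were -1.11 (edgeR adjusted p = 0.361; DESeq2 0.0191) and -2.35 (edgeR adjusted p = 0.101; DESeq2 0.0046). In miR139-KD the adaptor gene Tab2 had the lowest adjusted p of the list in edgeR, at 0.0614. Tab2 stood at 116 ± 18.8 CPM in miR139-KD and 80.5 ± 11.9 in NTC (n = 6 each, log2 fold change 0.53). The subunit gene Nfkb2, the partner of Relb in the non-canonical pathway, stood at 22.4 ± 8.56 and 11.1 ± 5.16 CPM (log2 fold change 1.02, edgeR adjusted p = 0.168). With Pus10-KO the lowest p of the subunits was that of Rela, at 136 ± 26.5 CPM against 92.2 ± 13.3 in Pus10-WT (n = 3 each, log2 fold change 0.56, edgeR adjusted p = 0.603).

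**Figure D4:**
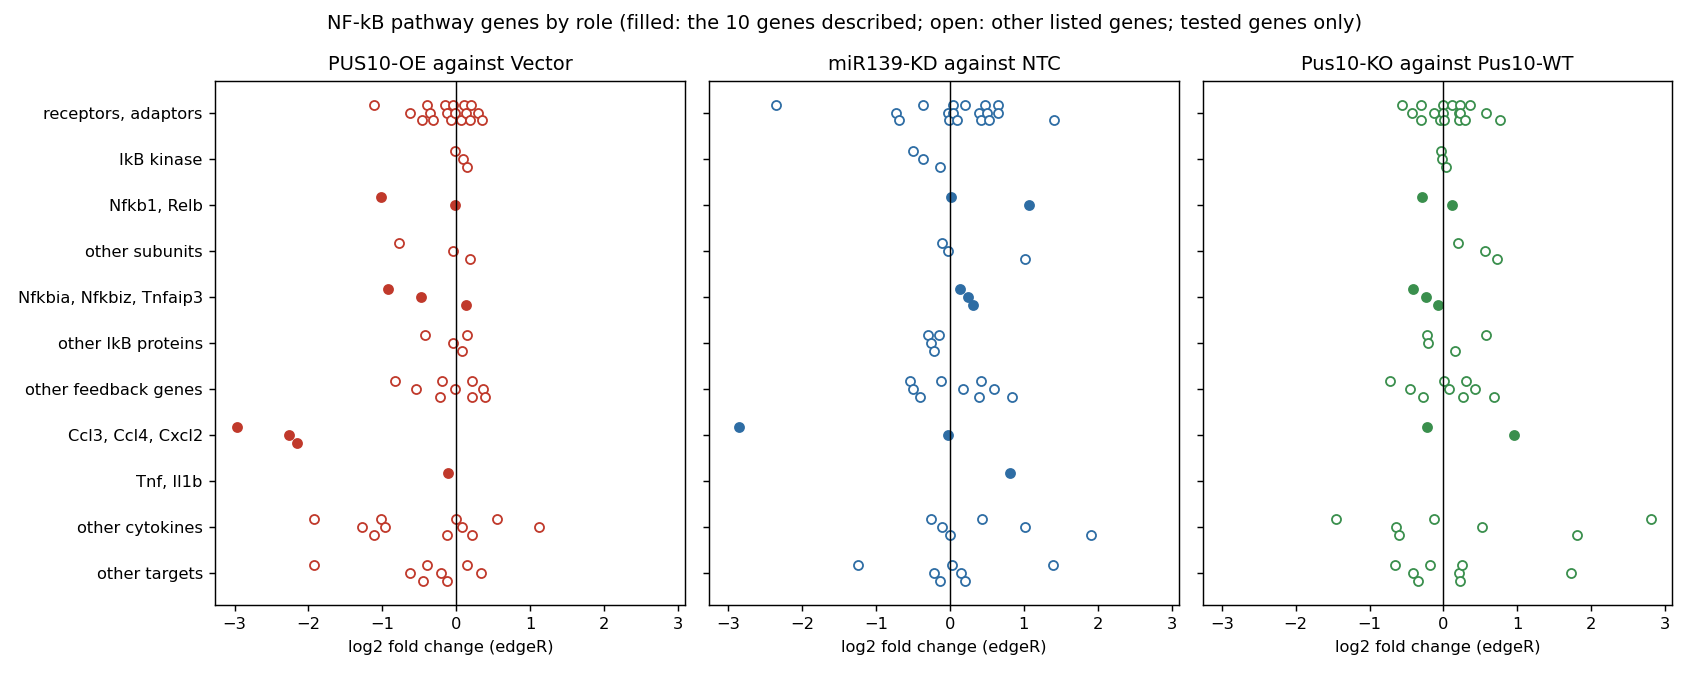
Log2 fold changes of the tested NF-kB pathway genes by role in each comparison, from edgeR, with the 10 genes described here filled and the other listed genes open. Most open points lie near 0, while Ccl3 and Ccl4 lie to the left with PUS10-OE, as does Cxcl2 with an SE of 2.13. Cd40, with 3 reads in PUS10-OE, is not drawn in that comparison.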

How the data were processed

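The authors deposited raw read counts per gene, whole numbers with no normalization. The submitters' processing notes name HISAT2 2.1.0, HTSeq 0.11.2 and mm10, and no annotation release. Symbols and coordinates came from GENCODE M21 (GRCm38). Entries for reads without a gene (3.7 to 12%) and ambiguous reads (6.53 to 20.1%) were left out.

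The 2 groups of a comparison were fitted alone in edgeR 4.0.16 (filterByExpr, TMM, robust quasi-likelihood F test, two-sided). A gene was called where its Benjamini-Hochberg adjusted p, taken over the whole table, was under 0.05. Standard errors came from the fold change and F, and 95% intervals used a normal quantile, so they are somewhat narrow. Levels are TMM-scaled CPM within a comparison. Floors are 3 counts. Libraries of a group differed by more than sampling noise. P-values measure the spread between libraries, which may be partly technical, and floors cover counting error only. Named pathway genes had the lowest p of their list, unless stated. The fits were tested on simulated data. Alternatives were DESeq2 1.42.0, limma-voom (limma 3.58.1), other scalings and filters, a replicate block, 1 fit of all groups, and each library left out. The members and lists were chosen with earlier results of these data known.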

Additional observations from a re-analysis of the deposited data

Results flagged for a closer look

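Il1b in NTC replicate 2 stood at 0.698 CPM while the other 5 NTC libraries had 0 reads, a gap that makes up the whole range of the group. In all, 18 groups of 6 values were tested for such a library. Chance flags about 1 in 20 where values follow a normal distribution, which counts mostly at 0 do not. A group with reads in 1 library alone is always flagged, so this flag adds nothing to the counts.

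Il1bos, the gene antisense to Il1b, is not among the 10 genes and was looked at after the values of Il1b were seen. It had 70, 85 and 96 reads in PUS10-OE replicates 1 to 3 and 0 reads in every Vector library, a mean of 2.05 ± 0.323 CPM (n = 3) against 0. The edgeR adjusted p of Il1bos was 0.298, between 0.213 and 1 in the other edgeR and limma-voom fits, and 1.02e-05 in DESeq2. In the other 18 libraries it had at most 5 reads. Il1b itself had 137, 9 and 0 reads in the same PUS10-OE libraries, so the reads of the pair do not follow each other.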

How the results depend on the processing

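Whether a member was called depended on the tool and on the groups in the fit. EdgeR fits of each comparison alone called 0 members and 0 pathway genes. DESeq2 called 2 members and 3 other pathway genes with PUS10-OE, 1 and 3 with miR139-KD, and 1 member each in the differences PUS10-OE minus Pus10-KO (Ccl4) and miR139-KD minus Pus10-KO (Tnf, fitted against a group at 0). For miR139-KD, limma-voom called 1 pathway gene, and all 6 groups in 1 fit called 1 member and 2 pathway genes. Leaving out 1 library at a time called 0 to 1 pathway genes with miR139-KD (Il1r1 without miR139-KD replicate 1, Tab2 without replicate 4) and 0 members in every comparison.

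Ccl3 kept its direction when libraries were left out (-3.95 to -2.52 with PUS10-OE, -3.31 to -2.47 with miR139-KD), as did Ccl4 with Pus10-KO (0.72 to 1.14). Relb ran from -1.75 to -0.72 with PUS10-OE and from 0.40 to 1.54 with miR139-KD, and Tnf from 0.40 to 1.61 with miR139-KD. Signs turned only for values that were not called. Nfkb1 was 0.0054 with upper-quartile factors (PUS10-OE), and -0.00059 in 1 fit of all groups and -0.03 with NTC replicate 6 and miR139-KD replicate 1 both left out (miR139-KD). With Pus10-KO, Relb was -0.28 in limma-voom and -0.31 with the replicate block, and Nfkbia was 7.3e-05 with library size only. With 1 library left out, the ranges that crossed 0 were, for PUS10-OE, Nfkb1 -0.27 to 0.21, Tnfaip3 -0.17 to 0.37 and Tnf -0.24 to 0.15. For miR139-KD they were Nfkb1 -0.07 to 0.08, Tnfaip3 -0.14 to 0.55 and Ccl4 -0.18 to 0.15. For Pus10-KO they were Relb -1.10 to 0.58, Nfkbia -0.17 to 0.03, Tnfaip3 -0.69 to 0.17 and Ccl3 -0.56 to 0.15. The cause was not tested.

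Libraries with the same replicate number did not deviate together (correlations -0.05 to 0.01, and 1 of 6, 0 of 12 and 0 of 6 libraries correlated best with their own number), so the numbers do not pair them. The replicate block left 0 members called in each comparison. Low counts limit Cxcl2 and Il1b throughout and Tnf in the experiments on miR139-KD and Pus10-KO, and 3 libraries a group limit the experiments on PUS10-OE and Pus10-KO.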
